A study of Mus musculus with 8 samples.

Results

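Heat shock proteins and their DnaJ co-chaperones were compared between the prefrontal cortex (PFC) of mice overexpressing Rnf146, an E3 ubiquitin ligase, and that of eGFP control mice. The group was chosen by gene symbol: every gene named Hspa, Hspb, Hspd, Hspe or Hsph, or Dnaja, Dnajb or Dnajc, followed by a digit. It held 57 of the 15039 genes in the expression table, 19 heat shock protein genes and 38 DnaJ genes. No measured value entered this naming rule, but the group was chosen with earlier results of these data known. The GENCODE annotation vM39 holds 69 protein-coding symbols that fit the naming rule, of which 13 were not analysed here, among them *Hspa1l*, *Hspb2*, *Hspb3* and *Dnajb13*. *Hspb11*, which that annotation lists under another name, *Ift25*, for its part in intraflagellar transport, was kept because the rule takes it. The *Hsp90* genes do not carry these names and are given below only beside the group.

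HSP70 chaperones bind unfolded stretches of other proteins and release them in an ATP-driven cycle. DnaJ proteins, also called HSP40 or J proteins, bring clients to HSP70 and trigger its ATP hydrolysis, while HSP110 proteins exchange the nucleotide and small heat shock proteins hold unfolded proteins in solution. When unfolded proteins accumulate in the cytosol, the heat shock factor HSF1 binds heat shock elements and switches on a part of these genes, and the endoplasmic reticulum (ER) has its own stress response with its own promoter element. In neurons, J proteins also act at synaptic vesicles and in the removal of clathrin coats.

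All 8 mice were wild-type males of the strain C57BL/6NCrljOri, 6 weeks old when an AAV2/1 vector was injected into the PFC of both hemispheres. The vector carried Rnf146 with eGFP in 4 mice and eGFP alone in the 4 controls, in both cases under the hSyn promoter, which is active in neurons. RNA was taken from the dissected PFC 4 weeks later, so cells that no vector reached were included. In such bulk tissue, fewer cells of a type and less RNA per cell cannot be told apart. The deposited values were on a log2 scale and had been centred within same-numbered pairs of libraries, 1 from each group, so that a gene held 4 independent pair differences (Rnf146 minus eGFP). The mirrored values do not show which mouse of a pair stood apart. *Rnf146* itself differed by 2.64 ± 0.13 (log2, mean ± SD, n = 4 pairs; adjusted p = 3.2e-07 by limma), with differences of 2.82, 2.51, 2.66 and 2.58 in pairs 1 to 4.

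The heat shock elements themselves are shown first. *Hsph1* and *Hspa1b*, the genes whose pair differences ran furthest apart (SD over pairs of 0.391 and 0.322), carry them. None was found in *Dnajc1* and *Dnajb2*, which came next (0.242 and 0.239). *Hspd1*, *Hspe1* and *Dnajb6*, which also carry them, had SDs of 0.051, 0.095 and 0.056. The sequences are RefSeq promoter windows of the mouse build GRCm38.p6, from 250 bases before to 50 bases after a gene's start. Windows were matched by symbol for 48 of the 57 genes. An element was read as 2 inverted units 2 bases apart (GAANNTTC or TTCNNGAA, each of which reads the same on both strands) or as 3 such units in a row, which always holds the shorter form. The 3-unit form was found in *Hspd1*, *Hspe1*, *Hsph1* and *Dnajb6*. The mitochondrial chaperonin genes *Hspd1* and *Hspe1* lie head to head, and their windows overlap and hold the same stretch with the element. *Hspa1a* and *Hspa1b*, the near-identical inducible HSP70 genes, carried the same 48 bases around a 2-unit element that starts 104 bases before the start in each. Capitals mark the elements in the following stretches, which run 5′ to 3′ on the gene's strand.
Hspe1, chr1:55088039-55088096, + strand: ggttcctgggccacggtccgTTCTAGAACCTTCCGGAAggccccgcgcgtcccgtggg
Dnajb6, chr5:29735832-29735884, + strand: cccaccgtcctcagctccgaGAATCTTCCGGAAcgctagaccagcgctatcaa
Hsph1, chr5:149636283-149636305, - strand, after the start: gcagaTTCTGGAAAGTTCtcctc
Hspa1a, chr17:34972233-34972280, - strand: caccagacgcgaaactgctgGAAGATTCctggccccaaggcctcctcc
Hspa1b, chr17:34959315-34959362, - strand: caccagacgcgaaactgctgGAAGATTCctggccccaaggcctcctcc
Hspb1, chr5:135887782-135887849, + strand: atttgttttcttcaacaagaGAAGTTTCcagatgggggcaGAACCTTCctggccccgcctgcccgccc
The ER stress element (CCAAT, 9 free bases, CCACG) was found in *Hspa5*, the HSP70 of the ER known as BiP, and in *Dnajc3*, a J protein of the ER. Both are shown with the element in capitals, since their values can be read against those of the heat shock element genes.
Hspa5, chr2:34772005-34772063, + strand: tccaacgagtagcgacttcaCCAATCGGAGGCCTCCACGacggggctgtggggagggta
Dnajc3, chr14:118937807-118937865, + strand: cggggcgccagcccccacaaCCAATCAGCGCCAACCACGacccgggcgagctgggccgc

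The 3-unit element was present in 4 of the 48 genes (8.33%), against 65 of the 11133 genes of the table with a window (0.584%). Among all 27025 genes with a window the share was 0.662%. Of the 4, *Hspd1* and *Hspe1* count the same stretch. The 2-unit form was present in 14 of the 48 (29.2%), against 13.9% of the genes of the table and 17% of all genes with a window. The ER stress element was present in 2 of the 48 (4.17%), against 0.153% of the genes of the table and 0.137% of all genes with a window. A match describes these letters in these windows and is not a measured binding site.

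None of the 57 genes was called different between Rnf146- and eGFP-expressing PFC at the study's threshold of an adjusted p of 0.1 (limma with the replicate number as block, Benjamini-Hochberg over all genes), where 188 of 15039 genes (1.25%) were called. At an unadjusted p under 0.05 there were 5 of 57 (8.77%), against 12.4% of all genes. Of these, 3 were higher with Rnf146 (6.45% of all genes) and 2 lower (5.98% of all genes). Without the block, 9 of 57 passed an adjusted p of 0.1 (15.8%), against 21.5% of all genes, with 6 higher (11% of all genes) and 3 lower (10.4% of all genes). A single direction in all 4 pairs, which in centred values is the same as groups that do not overlap, was seen in 9 of 57 (15.8%), against 20.6% of all genes. It was higher in 5 (10.4% of all genes) and lower in 4 (10.2% of all genes). Each share was below that of all genes. The smallest adjusted p among the 57 was 0.269, for *Dnajb14*.

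The differences were small as well as uncertain. Mean differences ran from -0.19 to 0.15 with a median of -0.0055 (log2 units), beside a median of 0.00086 over all genes. They were above 0 in 25 genes and below 0 in 32. The smallest difference of any called gene in the table was 0.205 in size, and no heat shock protein or DnaJ gene had a mean difference above 0.2 in either direction. The 95% interval of the mean difference lay wholly within 0.2 of 0 on both sides for 38 of 57 genes (66.7%), against 66.3% of all genes. For the other 19 a difference of that size was not excluded. The SD over the 4 pairs was larger than the mean difference in 45 of the 57. The scale was compressed for weakly expressed genes, so differences of such genes are understated. Rankings of genes by difference or SD, here and below, hold for the deposited scale only.

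**Figure D1:**
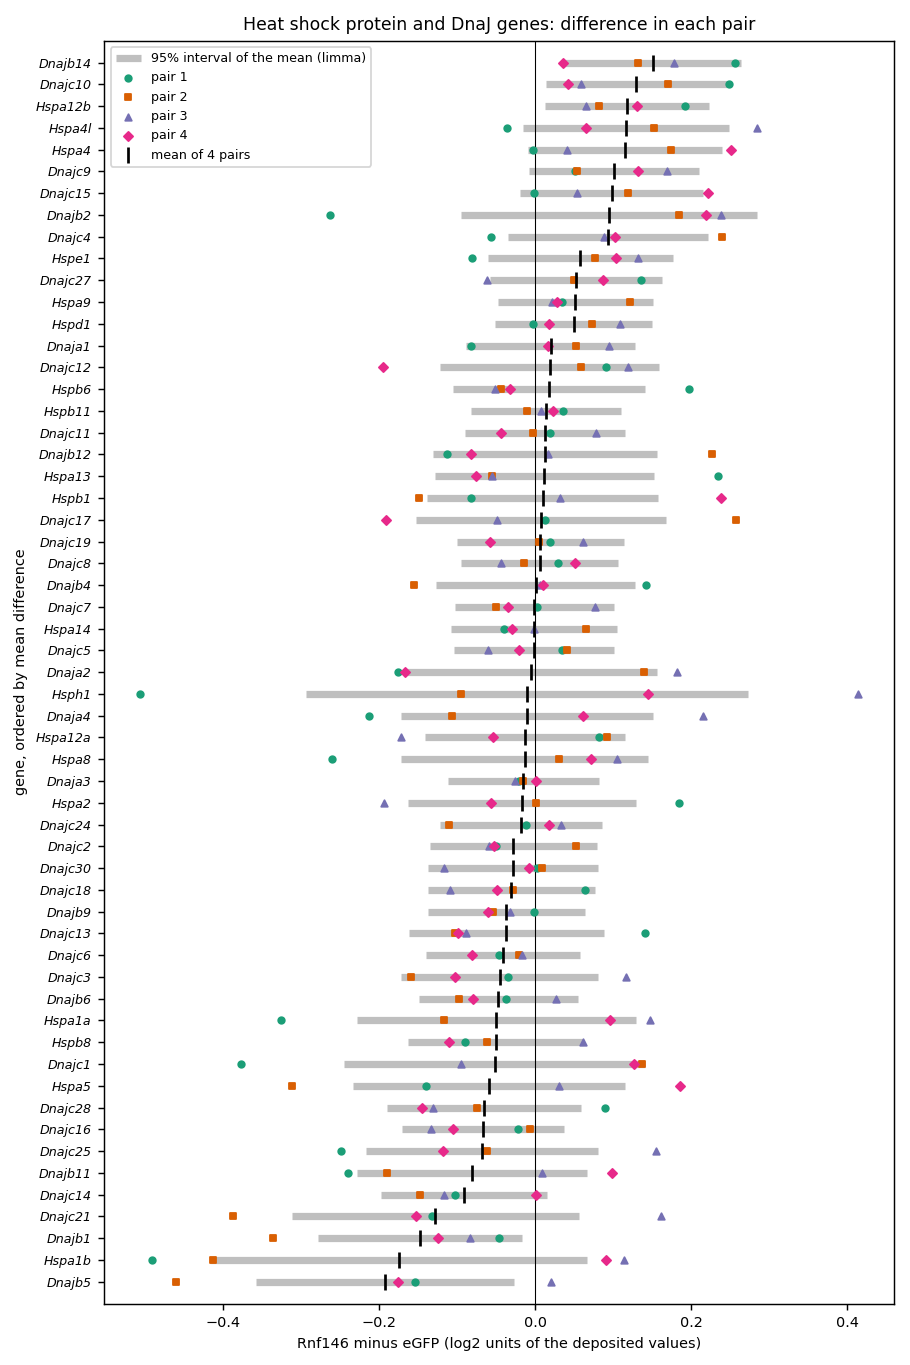
Each row is 1 of the 57 genes, ordered by mean difference; symbols give the Rnf146 minus eGFP difference in each of the 4 pairs (log2 units of the deposited values), black ticks the mean and grey bars its 95% interval by limma. Means lie between -0.19 and 0.15, and the pairs of *Hsph1*, *Hspa1b*, *Dnajc1* and *Dnajb2* are spread most widely.

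Among the genes that HSF1 is known to induce, which include the mitochondrial chaperonin genes *Hspd1* and *Hspe1*, 11 of 11 listed were measured and none was called. Their mean differences were above 0 in 6 and below 0 in 5, with a median of 0.00029 and a mean of -0.01. The pairs differed more than the groups did. In pair 1 only 1 of the 11 (*Dnajb4*) was higher with Rnf146, in pair 2 there were 5, and in pairs 3 and 4 there were 10 each. The mean over the list was -0.16, -0.08, 0.12 and 0.07 in pairs 1 to 4. Over all genes, between 7392 and 7687 of 15039 were higher in each pair.

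*Hsph1*, an HSP110 nucleotide exchange factor (GRCm39 chr5:149537636-149560156), varied most of all 57 genes. Its values were 13.22, 13.02, 12.76 and 12.90 in the eGFP libraries of pairs 1 to 4 and 12.72, 12.92, 13.18 and 13.04 in the Rnf146 libraries. The 2 groups overlapped along their whole range, and pair 1 and pair 3 differed in opposite directions, by -0.51 and 0.41. The mean difference was -0.01 with a 95% interval of -0.29 to 0.27 (adjusted p = 0.985 by limma), so the interval left room for a difference of either sign. The SD over pairs, 0.391, was larger than in 99.2% of all genes.

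*Hspa1a* and *Hspa1b* are neighbours on chromosome 17 (GRCm39 chr17:35188166-35191132 and chr17:35175412-35178214). Over 2277 aligned positions their transcripts were 97.5% identical, and 63.8% of the 31-base stretches of *Hspa1a* also occur in *Hspa1b*, so how reads were split between them is uncertain. *Hspa1b* had values of 9.47, 9.43, 9.17 and 9.18 with eGFP and 8.98, 9.02, 9.28 and 9.27 with Rnf146. Pairs 1 and 2 differed by -0.49 and -0.41 and pairs 3 and 4 by 0.11 and 0.09, and the groups overlapped. The mean difference of *Hspa1b* was -0.18 ± 0.32 (SD, n = 4 pairs; adjusted p = 0.542 by limma). *Hspa1a* had values of 9.40, 9.30, 9.17 and 9.19 with eGFP and 9.08, 9.18, 9.31 and 9.29 with Rnf146. In pairs 1 and 2 it was again lower with Rnf146 than with eGFP, though centred values do not show which library stood apart. Its mean difference was -0.05 ± 0.22 (SD, n = 4 pairs; adjusted p = 0.851 by limma).

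*Hspa8*, the constitutive HSP70 of the cytosol, had values of 15.44, 15.29, 15.26 and 15.27 with eGFP and 15.18, 15.32, 15.36 and 15.34 with Rnf146. Only pair 1 was lower with Rnf146, by 0.26. The mean difference was -0.01 (adjusted p = 0.962 by limma). The mitochondrial chaperonin *Hspd1* and its lid *Hspe1*, which share the promoter stretch shown above, had mean differences of 0.05 and 0.06 (adjusted p = 0.712 for each by limma). *Hspe1* was lower in pair 1 by 0.08 and higher in pairs 2 to 4 by 0.08, 0.13 and 0.10. The small heat shock protein gene *Hspb1* ranged from -0.15 in pair 2 to 0.24 in pair 4, with a mean of 0.01. *Hspa4l*, *Dnaja1* and *Dnajb4* had mean differences of 0.12, 0.02 and 0.00029, with adjusted p of 0.458 or more by limma.

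*Dnajb1*, a stress-inducible HSP40 (GRCm39 chr8:84334811-84339820), was the only gene of the HSF1 list with a single direction in all 4 pairs. Its values were 10.75, 10.89, 10.76 and 10.78 with eGFP and 10.70, 10.55, 10.68 and 10.66 with Rnf146. The groups did not overlap, and pair 2 lay furthest apart, at -0.34. The mean difference was -0.15 with a 95% interval of -0.28 to -0.02 (unadjusted p = 0.0317, adjusted p = 0.345 by limma). No exact match to either form of the heat shock element was found in its promoter windows. An element with other letters, or outside the windows, would be missed.

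**Figure D2:**
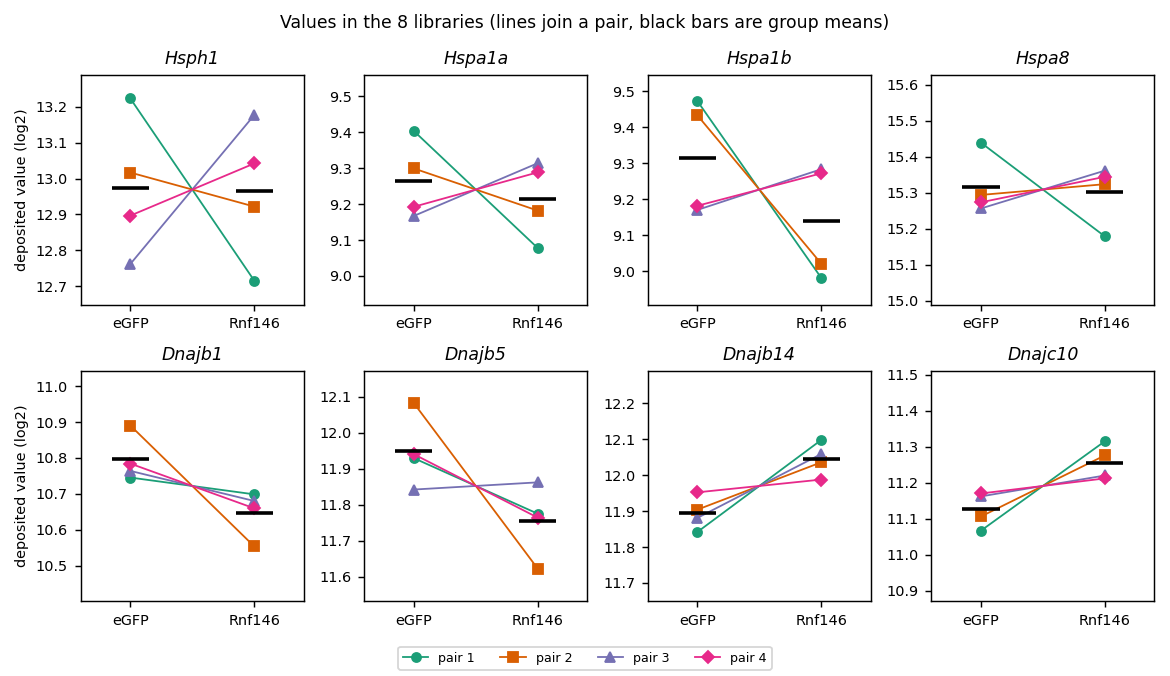
Deposited log2 values of 8 genes in the 4 eGFP and the 4 Rnf146 libraries; lines join same-numbered pairs, black bars are group means, and every panel spans the same range in log2 units. *Hsph1*, *Hspa1a* and *Hspa1b* cross between pairs, while *Dnajb1*, *Dnajb14* and *Dnajc10* slope 1 way in all 4; lines cross at the pair mean because the values were centred within pairs.

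Genes with and without a heat shock element can be set side by side. The median of the 14 genes with a 2-unit element was -0.08, -0.08, 0.08 and 0.05 in pairs 1 to 4, and 4, 5, 12 and 11 of them were higher with Rnf146. The median of the 34 genes without one was -0.02, -0.0091, 0.02 and -0.03, and 12, 16, 20 and 16 were higher. None was called in either set. The swing of the median from pair to pair was wider in the set with the element, which is a description of these 4 pairs. That set is the smaller one and shares many genes with the HSF1 list. It holds the near copies *Hspa1a* and *Hspa1b*, and *Hspd1* and *Hspe1*, which share a promoter stretch. The ER stress element genes *Hspa5* and *Dnajc3* had mean differences of -0.06 and -0.05.

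Outside the HSF1 list, the J protein *Dnajb5* (GRCm39 chr4:42949747-42959425) had the largest mean difference of all 57 genes, -0.19 with a 95% interval of -0.36 to -0.03 (unadjusted p = 0.0274, adjusted p = 0.327 by limma). Its values were 11.93, 12.08, 11.84 and 11.94 with eGFP and 11.78, 11.62, 11.86 and 11.76 with Rnf146. Pair 2 alone gave -0.46, while pair 3 gave 0.02, and the groups overlapped. Pair 2 was also the pair in which immediate early genes, which neuronal activity switches on, lay lowest. Over the 10 listed, pair 2 averaged -0.76, and no other pair went below -0.29. Among them, *Fos*, *Fosb* and *Junb* were called lower, against 0.432% of all genes called lower. Pair 2 was likewise the lowest for cortical excitatory neuron markers, with means of -0.26, -0.38, -0.09 and -0.21 in pairs 1 to 4. Microglial markers had means of -0.18, -0.28, -0.09 and -0.14, and striatal markers were highest in pair 2, at 1.36. The part of any of these in the values of *Dnajb5* and *Dnajb1* was not tested.

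Genes of the ER were measured for 12 of 12 listed. None was called, 2 had an unadjusted p under 0.05, and 4 had a mean difference above 0. *Dnajb14* (GRCm39 chr3:137573436-137622320), a J protein anchored in the ER membrane that works with cytosolic HSP70 in the disposal of misfolded proteins, had the largest positive difference of the 57. Its values were 11.84, 11.90, 11.88 and 11.95 with eGFP and 12.10, 12.04, 12.06 and 11.99 with Rnf146. Every Rnf146 library lay above every eGFP library, by the narrowest margin in pair 4. The mean difference was 0.15 ± 0.09 (SD, n = 4 pairs) with a 95% interval of 0.04 to 0.26 (unadjusted p = 0.0154, adjusted p = 0.269 by limma). *Dnajc10*, also named ERdj5, reduces disulfide bonds in the ER lumen. Its values were 11.07, 11.11, 11.16 and 11.17 with eGFP and 11.32, 11.28, 11.22 and 11.21 with Rnf146, again without overlap. The mean difference of *Dnajc10* was 0.13 ± 0.10 (SD, n = 4 pairs; adjusted p = 0.347 by limma).

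*Hspa5*, a common gauge of ER stress, had values of 12.62, 12.70, 12.53 and 12.45 with eGFP and 12.48, 12.39, 12.56 and 12.64 with Rnf146. The groups overlapped, with differences of -0.14, -0.31, 0.03 and 0.19 in pairs 1 to 4. *Dnajb11*, a BiP co-chaperone, ran the same way across the pairs, at -0.24, -0.19, 0.0089 and 0.10. *Dnajb9*, another BiP co-chaperone, was lower in all 4 pairs by at most 0.06 (mean -0.04, adjusted p = 0.789 by limma), and *Dnajc16* was lower in all 4 by at most 0.13 (mean -0.07, adjusted p = 0.597). *Dnajc1*, a J protein of the ER membrane, ranged from -0.38 in pair 1 to 0.14 in pair 2. Of 15 further ER quality control genes such as *Xbp1*, *Calr* and *Pdia4*, none was called, and their mean was -0.14, -0.14, 0.09 and 0.03 in pairs 1 to 4.

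Mitochondrial genes were measured for 8 of 8 listed, and 6 had a mean difference above 0 with a list median of 0.03. *Hspa9*, the HSP70 of the mitochondrial matrix, was higher in all 4 pairs by 0.03, 0.12, 0.02 and 0.03 (mean 0.05, adjusted p = 0.696 by limma). *Dnaja3*, its J protein partner, had the smallest SD over pairs of all 57 genes, 0.0118.

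Of the J proteins of vesicle traffic, *Dnajc5* encodes the cysteine string protein of synaptic vesicles. Its values were 13.27, 13.27, 13.32 and 13.30 with eGFP and 13.30, 13.31, 13.26 and 13.28 with Rnf146. The mean difference was -0.0015 with a 95% interval of -0.10 to 0.10, so a difference of 0.2 in either direction lay outside the interval. *Dnajc6*, or auxilin, which strips clathrin coats in neurons, had values of 13.28, 13.27, 13.27 and 13.30 with eGFP and 13.24, 13.25, 13.25 and 13.22 with Rnf146. It was lower in all 4 pairs, by at most 0.08 (mean -0.04, adjusted p = 0.755 by limma). *Dnajc13*, an endosomal J protein, was higher in pair 1 by 0.14 and lower in the others by about 0.1 (mean -0.04, adjusted p = 0.839 by limma).

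*Hspa12b*, a distant HSP70 relative known from endothelial cells, had values of 8.87, 8.92, 8.93 and 8.90 with eGFP and 9.06, 9.004, 8.996 and 9.03 with Rnf146. The groups did not overlap, and the mean difference was 0.12 ± 0.06 (SD, n = 4 pairs; unadjusted p = 0.032, adjusted p = 0.345 by limma). None of 7 endothelial and mural markers was called, with list means of 0.01, 0.01, 0.08 and 0.0088 in pairs 1 to 4. *Dnajc9*, a histone co-chaperone, was higher in all 4 pairs by 0.05, 0.05, 0.17 and 0.13 (mean 0.10, adjusted p = 0.436 by limma). *Dnajb2*, a neuronal J protein that binds ubiquitin, was lower in pair 1 by 0.26 and higher in pairs 2 to 4 by 0.18, 0.24 and 0.22. Its mean difference was 0.09 (adjusted p = 0.706 by limma). Without pair 1 it was 0.21, with an adjusted p of 0.089 in a fit that called 2.8% of all genes, and it was then the only one of the 57 to be called. Leaving out pair 2, 3 or 4 gave none, where 0.279%, 1.12% and 0.0931% of all genes were called.

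By family, none was called of the 10 measured HSP70 genes, the 3 HSP110 genes, the 4 small heat shock protein genes, or the 4, 9 and 25 DnaJ genes of classes A, B and C. The medians of these families were -0.01, 0.12, 0.01, -0.0082, -0.04 and -0.02. In the HSP110 family *Hspa4* and *Hspa4l* each had a mean difference of 0.12 and *Hsph1* lay near 0. Of the 5 genes tied to the ribosome or the spliceosome, *Dnajc21* had the largest difference, -0.13 (adjusted p = 0.563 by limma), with pair 2 at -0.39 and pair 3 at 0.16.

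**Figure D3:**
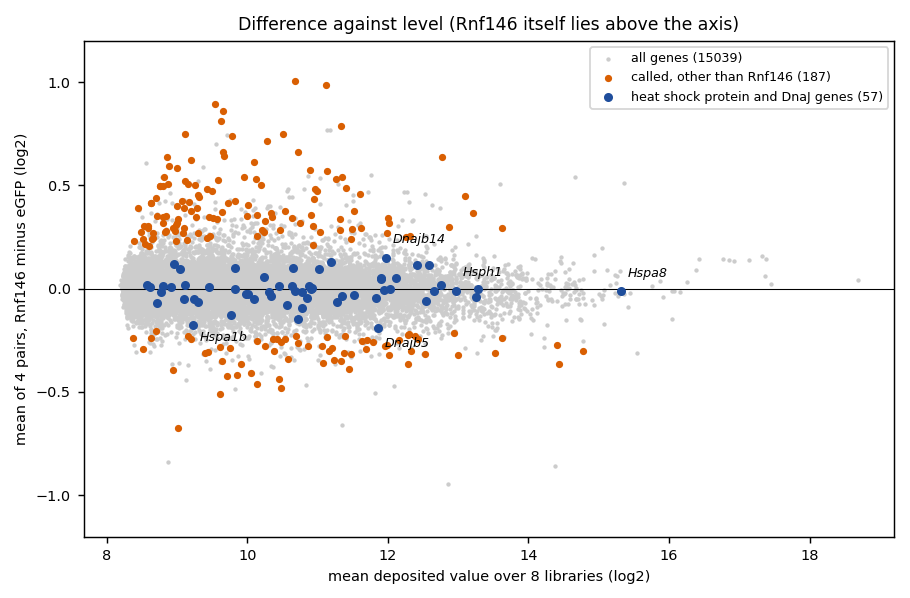
Mean difference of 4 pairs (log2) against the mean deposited value over 8 libraries (log2, not per transcript length) for all 15039 genes in grey, called genes other than *Rnf146* in orange and the 57 heat shock protein and DnaJ genes in blue. The blue points span mean values from 8.57 to 15.3 and stay within 0.2 of 0, inside the range at which no gene was called.

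Partners of these chaperones gave a like picture. None of the 4 Hsp90 genes was called, with adjusted p of 0.711 or more by limma, and their mean was -0.20, 0.06, 0.15 and 0.08 in pairs 1 to 4. *Hsp90aa1*, the inducible cytosolic form, gave -0.28, 0.23, 0.16 and -0.04. Of 32 cochaperones of HSP70 and Hsp90 none was called, and 1 had an unadjusted p under 0.05. Another of the 32, *Fkbp4*, an Hsp90-binding immunophilin, gave -0.20, 0.13, 0.52 and 0.35 (unadjusted p = 0.0813, adjusted p = 0.463 by limma). *Hsf1*, the factor named above, was lower in all 4 pairs by 0.17, 0.13, 0.15 and 0.03, with a mean of -0.12 (unadjusted p = 0.0327, adjusted p = 0.347 by limma). *Hsf2* and *Hsf4* had mean differences of 0.03 and 0.05. None of the 14 genes of the TRiC chaperonin and prefoldin was called, and neither was any of the 5 measured heat shock relatives with other names. Of these, *Cryab*, a small heat shock protein gene strongly expressed in oligodendrocytes, gave -0.43, 0.18, 0.73 and 0.52.

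Cell type markers differed between the groups and from pair to pair, and these values stand beside the pair differences above. Whether the dissection or Rnf146 itself lay behind the marker differences was not tested. Markers of cortical excitatory neurons were present in all libraries, and 2 of 8 were called lower with Rnf146. All 8 had mean differences below 0, from -0.35 to -0.15. Of these, 7 had an unadjusted p under 0.05 by limma, against 12.4% of all genes. The 9 oligodendrocyte markers were not called, though all 9 had an unadjusted p under 0.05 by limma. Their mean was -0.14, 0.49, 0.96 and 0.56 in pairs 1 to 4, lowest in pair 1 and highest in pair 3. The HSF1 list, the HSP110 genes and the Hsp90 genes were also lowest in pair 1 and highest in pair 3. So were, among others, DnaJ class A, the ER genes, the mitochondrial chaperonin genes and the oligodendrocyte precursor markers. The HSF1 list shares genes with the HSP110 and chaperonin lists. Other chaperone lists kept another order. The HSP70 genes were highest in pair 4 (0.04). DnaJ class B and the small heat shock protein genes were lowest in pair 2 (-0.08 and -0.07), and DnaJ class C was lowest in pair 4 (-0.03). In the centred values, the average oligodendrocyte marker level was 12.01 to 12.56 in the eGFP libraries and 12.42 to 12.97 in the Rnf146 libraries. The 9 striatal markers, of which 8 had an unadjusted p under 0.05 by limma and none was called, had means of -0.11, 1.36, 0.74 and 0.30. Their average levels, in the centred values, were 10.01 to 10.74 with eGFP and 10.63 to 11.36 with Rnf146. All 5 measured septal and basal forebrain markers were called higher, against 0.818% of all genes called higher, while *Lhx8* and *Chat* were not analysed here. Of 3 ependymal markers 2 were called higher. Of 7 inhibitory neuron markers 3 were called higher and the other 4 had mean differences below 0, so that the list had a median of -0.03 and a mean of 0.17. The 8 astrocyte markers were not called (means of -0.06 to 0.04), nor were the 4 of oligodendrocyte precursors, and 1 of 8 microglial markers was called lower. All 8 microglial markers had mean differences below 0, and 4 had an unadjusted p under 0.05 by limma. The part of tissue composition in the heat shock protein and DnaJ differences was not tested.

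**Figure D4:**
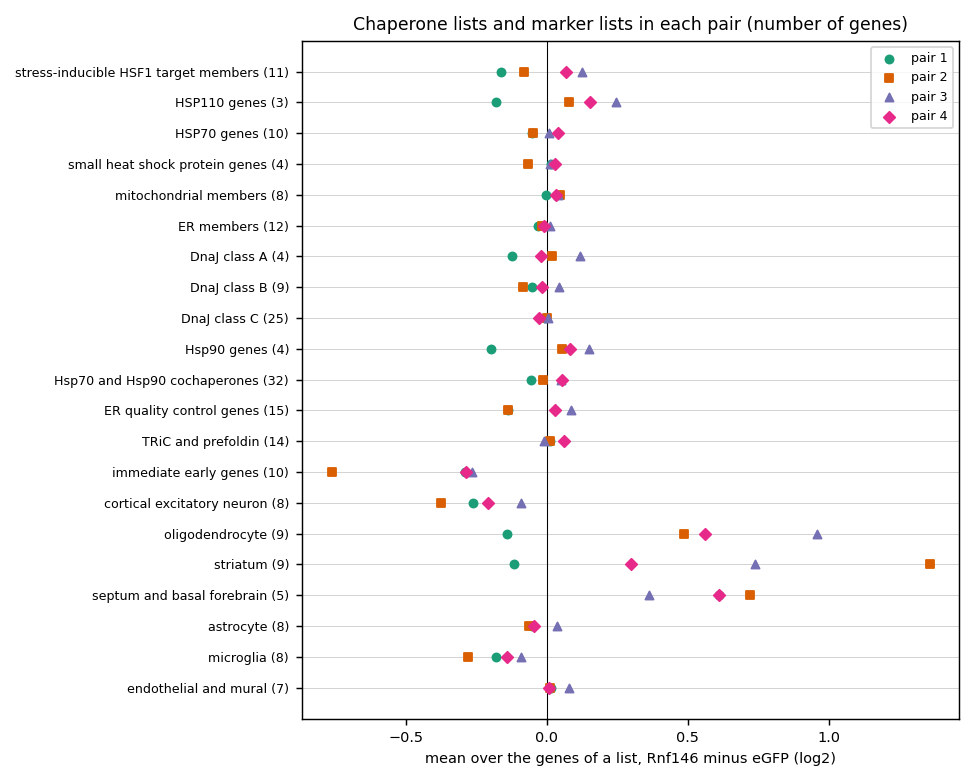
Mean over the genes of each list of the Rnf146 minus eGFP difference (log2) in each of the 4 pairs; numbers in brackets count the genes of a list. The HSF1 targets, HSP110 genes, Hsp90 genes, DnaJ class A and ER members are lowest in pair 1 and highest in pair 3. The oligodendrocyte markers show this over a wider range. The HSP70 genes, the small heat shock protein genes and DnaJ classes B and C keep another order. The immediate early genes are lowest in pair 2, as are, among others, the cortical excitatory and microglial markers.

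In the annotation, 23 of the 57 genes overlap a coding gene on the opposite strand, among them *Hspa5* with *Rabepk*, *Dnajc1* with *Mllt10*, *Dnaja1* with *Smu1* and *Hspa12b* with *Adissp*. The libraries were made with a stranded kit, and whether the counting used strand was not given in the sources used here. The annotation also holds 15 pseudogenes named after these genes, most of them copies of *Hspd1* or *Hspe1*, so the assignment of reads to the parent genes is uncertain.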

How the data were processed

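The authors trimmed reads with Cutadapt, quantified them with Salmon 1.9.0 against GENCODE vM30 (GRCm39) and summarized transcripts to genes. Their name for the table is normalized counts. What it holds, as deposited, is a log2 value per gene and library, between 7.86 and 18.8, which the authors had centred within same-numbered pairs (pair sums agree to 1.42e-13). The step behind the log2 values and the centring is not given in the sources used here. Depth is therefore unknown, no count test or counting interval was possible, and no per-sample column was left unused.

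Groups and replicate numbers came from the sample labels. Pairing comes from the centring: same-numbered deviations mirror each other exactly, so the replicate number was a block, leaving 3 residual degrees of freedom in place of 6. Linear models (limma 3.58.1, R 4.3.3, empirical Bayes with trend) were fitted to all 15039 genes, checked on simulated data, with Benjamini-Hochberg adjustment and calls at 0.1 or less. The simulated shifts were larger than any mean difference of the heat shock protein and DnaJ genes. That check therefore does not tell how often differences of the sizes reported here would be called. With 4 pairs, p-values measure the spread between these mice only, as no source says that a number marks a shared litter or day. Tables, motifs and alignments used Python 3.11.15 (numpy 2.4.6, pandas 2.3.3, biopython 1.88).

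The genes and lists were chosen with earlier results of these data known. Genes named were those called, up to 8 with the largest increase and up to 8 with the largest decrease among genes of 1 direction in all pairs, the 4 with the largest SD, the HSF1 targets, 5 genes by role, the Hsp90 genes and heat shock factors. *Dnajb5*, *Dnaja3*, *Dnaja4*, *Dnajb6*, *Dnajb11*, *Dnajc3*, *Dnajc14*, *Dnajc15*, *Dnajc21*, *Hspa4*, *Fkbp4* and *Cryab* were named after their values were seen. Coordinates of genes are from GENCODE vM39 (GRCm39); those of promoter stretches are from RefSeq (GRCm38.p6) and cannot be placed on the other build here.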

Additional observations from a re-analysis of the deposited data

Results flagged for a closer look

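In 3 of the 34 heat shock protein and DnaJ genes named here, 1 of the 4 pairs stood far from the rest, with a gap to its nearest neighbour above Dixon's critical share of the whole range at 95%. For genes not chosen by their values, chance gives about 1 such gene in 20. The 34 were named in part by their values, so this rate may not apply to them, and no share over all genes is given here. *Dnajb2* had -0.26 in pair 1 (gap 0.892 of the range), *Dnajc13* had 0.14 in pair 1 (0.942) and *Hspa9* had 0.12 in pair 2 (0.876). All are log2 differences, Rnf146 minus eGFP.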

How the results depend on the processing

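No heat shock protein or DnaJ gene was called with the replicate block, and none was under median centring, quantile normalization, sample weights, a robust prior, no variance trend or with the 20% of genes of lowest value left out. Without the replicate block, 9 were called: *Dnajb14*, *Dnajc10*, *Hspa12b*, *Dnajc9*, *Dnajc15* and *Hspa4* above 0 and *Dnajb1*, *Dnajb5* and *Dnajc14* below. All genes called went from 188 to 3226, since that fit counts 6 residual degrees of freedom where the pairs allow 3. Leaving out 1 pair at a time gave 0 to 1 called (*Dnajb2* without pair 1), with 421, 42, 169 and 14 of all genes called without pairs 1 to 4, and 355 with sample weights. The 5 genes at an unadjusted p under 0.05 became 13 without the replicate block, 8 with sample weights and 1 to 7 with a pair left out. The 9 genes of 1 direction became 13 to 23 over 3 pairs, since fewer pairs had to share it. The median moved from -0.0093 to -0.0025 with a pair left out.

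Among the 34 genes named, signs changed in 10. *Dnajc5* was 0.00052 under median centring and 0.0173 under quantile normalization, where *Hspb1* was -0.0017 and *Dnajb4* -0.0061. With sample weights *Dnajb4* was -0.0135, *Hsph1* 0.0375, *Hspa8* 0.0143 and *Dnaja4* 0.0076. With a pair left out, values ran from -0.15 to 0.15 in *Hsph1*, -0.115 to 0.056 in *Dnajc1*, -0.116 to 0.042 in *Hspa1a*, -0.053 to 0.069 in *Hspa8*, -0.047 to 0.052 in *Dnajb4*, -0.086 to 0.057 in *Dnaja4*, -0.141 to 0.025 in *Hspa5*, -0.0047 to 0.054 in *Dnaja1*, -0.016 to 0.018 in *Dnajc5* and -0.067 to 0.062 in *Hspb1*. The cause was not tested. The median half-width of the 95% intervals was 0.123 over the 57 genes, so in a gene of typical spread a smaller difference could not be resolved with 4 pairs, and the depth is unknown.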
